A study of Mus musculus with 4 samples.

Results

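The TNF and NF-κB response genes described here are 10 genes chosen by symbol from the deposited gene table. They include the cytokine gene Tnf, its receptor genes Tnfrsf1a and Tnfrsf1b, and the adaptor and E3 ligase genes Traf1 and Birc3. The feedback inhibitor genes are Tnfaip3 and Nfkbia, and Nfkbiz encodes a nuclear IκB protein. The rest are the NF-κB subunit gene Relb and the adhesion molecule gene Icam1. The table listed 24441 genes, and all 10 of these were in it. The rule used only symbols, but the genes were proposed with earlier results of these data known. Their transcripts were measured by RNA sequencing of whole skin in 4 libraries, 2 from wild-type (WT) and 2 from GSDMD knockout (KO, GSDMD-/-) mice. All were female C57BL/6 mice, 8 weeks old by the labels, and all received subcutaneous bleomycin (BLM) on alternate days over 28 days, so both groups carried the treatment and no untreated skin was analysed here. BLM is a cytotoxic antibiotic that causes skin fibrosis resembling scleroderma, and GSDMD is the pore-forming protein that executes pyroptosis. The KO allele is present in the whole animal, since it was made by injecting Cas9 mRNA and guide RNA into fertilized C57BL/6 eggs. The comparison asks how the skin transcriptome of BLM-treated mice differed when GSDMD was absent.

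TNF is released mainly by activated macrophages and other immune cells and acts on receptors that differ in where they are found: the receptor encoded by Tnfrsf1a is present on most cells, and the receptor encoded by Tnfrsf1b is largely restricted to immune and endothelial cells. Binding assembles a complex of TRAF and cIAP proteins that activates the IKK kinases, IκB is degraded, and NF-κB dimers enter the nucleus. Many NF-κB target genes encode the inhibitors that end the signal, among them Nfkbia and Tnfaip3, and Tnf is itself a target.

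Values were FPKM, fragment counts divided by transcript length and library depth, and summed to between 448544 and 462251 per library. The knocked-out gene was at 14.0 and 18.2 FPKM in WT replicates 1 and 2, against 3.53 and 2.26 FPKM in KO replicates 1 and 2, 5.56-fold lower in the KO mean, so Gsdmd went with the labels. The keratinocyte genes Krt5 and Krt14 were high in all 4 libraries (at least 764 and 1214.5 FPKM) but the biopsies held muscle RNA as well. The 4 skeletal muscle markers summed to 16445 and 16639 FPKM in the WT libraries and to 10009 and 9652.8 FPKM in the KO libraries. All 4 lay below WT in both KO libraries, where 20.5% of all genes tested did so. KO replicate 2 stood apart from the other libraries: its summed fibroblast markers were 24.8 FPKM against 129 to 329 FPKM in the others, its endothelial markers 17.5 FPKM against 96.3 to 153 FPKM, and its adipocyte markers 37.4 FPKM against 367 to 1301.5 FPKM. KO replicate 1 stood apart in hair follicle genes (inner root sheath and hair shaft keratins and Tchh), which summed to 336 FPKM against 0.722 to 10.3 FPKM elsewhere. From the steps between low values, 1 fragment on 1 kb of transcript was worth roughly 0.0574 to 0.0783 FPKM, which sets the depth.

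Among the 10 genes, 3 were lower in KO skin by more than 2-fold on average, namely Tnf, Tnfrsf1b and Traf1, and 1 was higher by more than 2-fold, Nfkbiz. The other 6 genes, including the broadly expressed receptor gene Tnfrsf1a and the inhibitor gene Nfkbia, differed by less than 1.5-fold between the group means. No gene of the 10 passed the threshold of limma with Benjamini-Hochberg adjustment (adjusted p under 0.05 and absolute log2 fold change above 1), and neither did any other gene: 0 of 13027 genes tested, 0%, were called. By an unadjusted p under 0.05 with the same fold limit, Tnf, Tnfrsf1b and Traf1 were lower, against a background of 539 of the 13027 genes (4.14%), and Nfkbiz was higher, against 802 genes (6.16%). Both KO values lay below both WT values for 7 of the 10 genes, where 20.5% of all genes tested did so, and above them for 1 gene, where 35.3% did so. The median log2 fold change of the 10 genes was -0.35, beside 0.11 over all genes tested. All 10 genes passed the filter of at least 1 FPKM in at least 2 libraries, and 8 of them were at 1 FPKM or more in every library; the exceptions, Tnfrsf1b and Traf1, were under it in KO replicate 2 only. With 2 libraries a group, limma drew each gene's spread towards a trend over all genes tested, so its SEs and p-values rest on both. That spread is only between these samples, which the labels do not tie to separate animals. An exact two-sided permutation test cannot give less than 0.333.

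**Figure D1:**
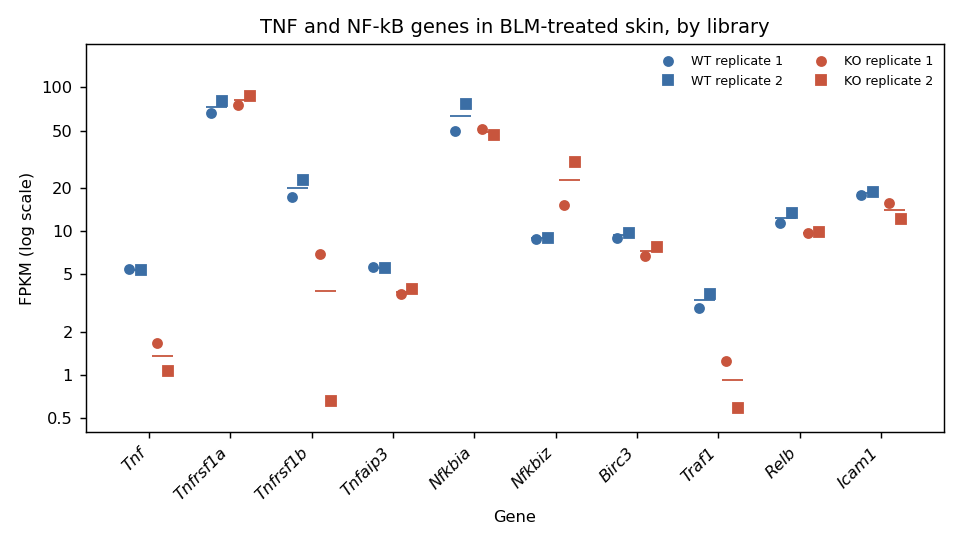
FPKM (log axis) of the 10 genes in each library, with blue symbols for WT and red for KO, circles for replicate 1, squares for replicate 2 and short lines for group means. Tnf, Tnfrsf1b and Traf1 have both KO points far below the WT points, Nfkbiz has both above them, and Tnfrsf1a and Nfkbia overlap.

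Tnf, the ligand gene, lies on chr17:35336311-35338952 of the mouse build mm9, the build of the deposited loci, on the minus strand, with 4 exons in its longest coding transcript. It was measured at 5.42 and 5.38 FPKM in WT replicates 1 and 2, against 1.66 and 1.06 FPKM in KO replicates 1 and 2. The WT libraries were nearly equal, both KO libraries lay below them, and the groups did not overlap. The KO mean was 3.97-fold lower (5.4 ± 0.0331 FPKM in WT skin against 1.36 ± 0.425 FPKM in KO, SD, n = 2 each). On the log2(FPKM + 1) scale used for all fold changes, which understates the change of low genes, the difference was -1.45 ± 0.26 (SE; limma, Benjamini-Hochberg adjusted p = 0.248). The approximate number of fragments behind these values was 155 and 126 in WT and 37.6 and 22.2 in KO, well above the 3 fragments taken as a floor, which would stand at 0.105 to 0.143 FPKM for this gene. In whole skin, fewer cells of a type and less RNA per cell cannot be told apart.

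The receptor genes went apart. Tnfrsf1a (chr6:125299740-125312501, mm9), which encodes the receptor that can signal both NF-κB activation and cell death, was at 66.5 and 79.9 FPKM in WT skin against 75.1 and 87.1 FPKM in KO. The groups overlapped, and the log2 fold change of 0.15 ± 0.24 (SE) was smaller than its error (limma, Benjamini-Hochberg adjusted p = 0.751). Tnfrsf1b (chr4:144802270-144836773, mm9), which encodes the receptor without a death domain, was at 17.3 and 22.7 FPKM in WT skin against 6.98 and 0.66 FPKM in KO replicates 1 and 2. Both KO libraries were lower, without overlap, but on the log2 scale they differed from each other by more than KO replicate 1 differed from WT: roughly 367 fragments were behind the value of KO replicate 1 and 32.2 behind that of KO replicate 2. Its log2 fold change of -2.52 ± 0.75 (SE) was the largest of the 10 in size and had the largest error (limma, Benjamini-Hochberg adjusted p = 0.248). Against KO replicate 1 alone it was -1.38, so much of its size came from KO replicate 2. In that library macrophage, endothelial, fibroblast and adipocyte markers were all at their lowest sums of the 4 libraries (94.3, 17.5, 24.8 and 37.4 FPKM), and their part in the value was not tested.

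As a result of these levels, Tnfrsf1a exceeded Tnfrsf1b 3.84-fold and 3.52-fold in the WT libraries and 10.8-fold and 132-fold in the KO libraries. A ratio within a library is free of scaling between libraries, and this one was higher in both KO libraries, by 3.36 on the log2 scale between the group means (exact permutation p = 0.333, the smallest possible). Tnf per Tnfrsf1a, ligand transcript relative to the broadly expressed receptor transcript, was 0.0816 and 0.0673 in WT and 0.0221 and 0.0122 in KO, again without overlap.

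Traf1 and Birc3 encode proteins recruited to these receptors: TRAF1 is an adaptor that joins TRAF2 complexes and is strongly induced by NF-κB, and the Birc3 product cIAP2 is a ubiquitin ligase that restrains cell death at the receptor. Traf1 (chr2:34797269-34817292, mm9) was at 2.94 and 3.66 FPKM in WT skin against 1.25 and 0.591 FPKM in KO. Both KO values lay below WT, and the mean was 3.59-fold lower, a log2 fold change of -1.18 ± 0.29 (SE; limma, Benjamini-Hochberg adjusted p = 0.248). Birc3 (chr9:7848700-7873170, mm9) was at 8.89 and 9.77 FPKM in WT skin against 6.72 and 7.73 FPKM in KO. Its groups did not overlap either, but the means differed only 1.29-fold, a log2 fold change of -0.33 ± 0.24 (SE) with an adjusted p of 0.475 in the same limma fit. Traf1 thus lay further below WT than Birc3, and the difference between these genes was not tested.

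The feedback inhibitor genes Nfkbia and Tnfaip3 were lower in the KO mean by 1.29-fold and 1.47-fold. Nfkbia, which encodes IκBα, the protein that holds NF-κB in the cytoplasm, was at 49.8 and 76.7 FPKM in WT skin against 51.2 and 46.8 FPKM in KO. KO replicate 1 lay between the WT libraries, so the groups overlapped (log2 fold change -0.33 ± 0.29, SE; limma, Benjamini-Hochberg adjusted p = 0.553). The value depended on the WT libraries, at -0.64 without WT replicate 1 and -0.02 without WT replicate 2. Tnfaip3, which encodes the ubiquitin-editing enzyme A20 that shuts off the TNF receptor complex, was at 5.65 and 5.51 FPKM in WT skin against 3.64 and 3.97 FPKM in KO. Replicates were close within each group and the groups did not overlap, and the log2 fold change was -0.45 ± 0.23 (SE; limma, adjusted p = 0.361). Nfkbia (chr12:56590395-56593634, mm9) has 6 exons and Tnfaip3 (chr10:18720716-18735216, mm9) has 9 in the longest coding transcript, and neither shares exon sequence with another annotated gene.

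Nfkbiz was the gene of the 10 with both KO values above both WT values. It encodes IκBζ, a nuclear IκB protein that works with NF-κB as a co-activator of a subset of secondary response genes and is known in keratinocytes as a mediator of the IL-17 response. It lies on chr16:55811489-55838754 (mm9) and was at 8.81 and 8.98 FPKM in WT skin against 15.3 and 30.0 FPKM in KO replicates 1 and 2. Both KO libraries were above both WT libraries, with KO replicate 2 the highest. The mean was 2.55-fold higher in KO, a log2 fold change of 1.18 ± 0.37 (SE; limma, Benjamini-Hochberg adjusted p = 0.254). Against KO replicate 1 alone the value was 0.72 and the unadjusted p was 0.0566, and the unadjusted call was also lost without either WT library. Set beside the classical inhibitor, Nfkbiz per Nfkbia was 0.177 and 0.117 in WT and 0.298 and 0.642 in KO, so the ratio was higher in both KO libraries (exact permutation p = 0.333). Summed markers of interfollicular keratinocytes were also higher in KO, at 7852 and 4986.4 FPKM against 3516.7 and 2739.6 FPKM in WT. Of the 6 markers, Krt5, Krt14 and Dsg1a lay above WT in both KO libraries, beside 35.3% of all genes tested, and the others overlapped. Krt1 and Krt10, markers of differentiated keratinocytes, were at 280 and 266 FPKM in KO replicate 2, below both WT values, and at 1665.3 and 1669.8 FPKM in KO replicate 1. The part of these cells in the Nfkbiz difference was not tested.

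Relb encodes the subunit that pairs with p52 in the non-canonical NF-κB pathway, and Icam1 encodes the adhesion molecule by which leukocytes bind endothelium. Relb (chr7:20191570-20214787, mm9) was at 11.4 and 13.4 FPKM in WT skin against 9.67 and 9.85 FPKM in KO, and Icam1 (chr9:20820383-20833258, mm9) was at 17.9 and 18.7 FPKM in WT skin against 15.7 and 12.2 FPKM in KO. All KO values were below the WT values for both genes. The gaps were nevertheless small, with log2 fold changes of -0.31 ± 0.24 (SE) for Relb and -0.38 ± 0.25 for Icam1 (limma, Benjamini-Hochberg adjusted p = 0.495 and 0.441). An exon of Icam1 overlaps Mir1900 on the opposite strand. Whether reads were counted by strand is not given in the sources used here.

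**Figure D2:**
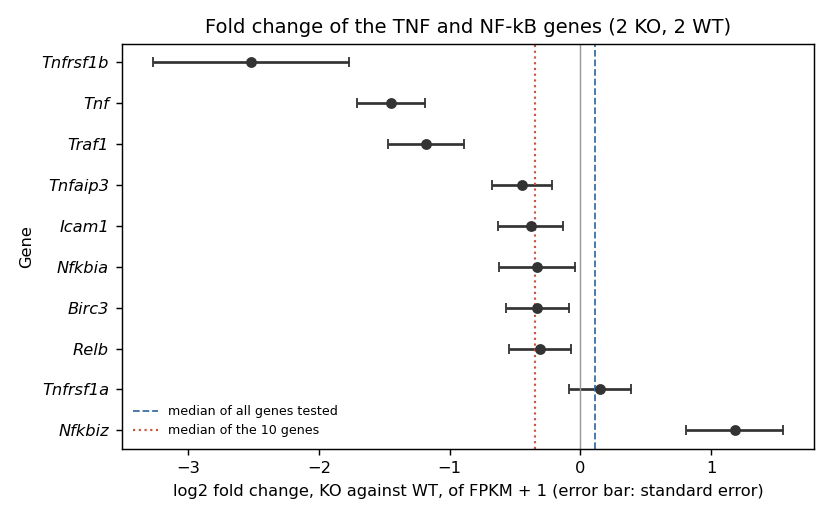
Log2 fold change of each gene, KO against WT, on the log2(FPKM + 1) scale with its standard error (n = 2 per group), ordered from lowest to highest. The dotted line marks the median of the 10 genes, -0.35, and the dashed line the median of all genes tested, 0.11; Tnfrsf1b, Tnf and Traf1 lie below -1 and Nfkbiz above 1.

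The genes also differed in how KO replicates 1 and 2 stood to the WT mean. For Tnf the gaps were -1.27 and -1.63 on the log2 scale, and for Traf1 -0.93 and -1.43, with both KO libraries below WT. Without KO replicate 2, Traf1 no longer passed the fold limit of the unadjusted rule, and without WT replicate 2 neither Traf1 nor Tnfrsf1b passed its p threshold; without WT replicate 1 Tnfrsf1b did not. Tnf passed the rule whichever of the 4 libraries was left out. The smaller gaps of Tnfaip3 (-0.5 and -0.41), Relb (-0.32 and -0.3) and Birc3 (-0.42 and -0.24) were below WT in both KO libraries. The gaps of Tnfrsf1b and Nfkbiz were -3.65 and 1.65 in KO replicate 2 and -1.38 and 0.72 in KO replicate 1. With KO replicate 1 left out, Tnf, Tnfrsf1b, Traf1 and Nfkbiz all passed the adjusted threshold (limma, Benjamini-Hochberg adjusted p = 0.0153, 0.00148, 0.0266 and 0.0152), but so did 1920 genes in all, and with KO replicate 2 left out none of the 10 did, beside 31 genes in all. Each of these fits compares a lone KO library with WT and assumes that it varies like the WT libraries.

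Among the immune cell markers, most of those of macrophages and neutrophils were lower in both KO libraries. The 12 macrophage markers summed to 2102.6 and 2147.3 FPKM in WT and to 890.0 and 94.3 FPKM in KO replicates 1 and 2. For 10 of the 12 the KO values lay below both WT values, beside 20.5% of all genes tested, and none of the 12 was at 0. Mrc1 and Cd163 overlapped between the groups, with Cd163 at 4.14 FPKM in KO replicate 1 against 2.02 and 2.93 FPKM in WT. The 7 neutrophil markers summed to 764 and 626 FPKM in WT and to 309 and 151 FPKM in KO, with 6 of 7 below WT in both KO libraries, beside the 20.5% for all genes tested. Ly6g and Mpo, counted among the 6, were listed at 0 in each KO library but were at most 0.238 FPKM in WT, too low to be tested. Csf3r and Retnlg, at low levels, also lay below WT, and Cxcr2 overlapped. Each neutrophil sum came mostly from S100a8 and S100a9. Taking WT replicates 1 and 2, then KO replicates 1 and 2, S100a8 read 440, 287, 151 and 107 FPKM. In the same order S100a9 read 312, 322, 153 and 41.0 FPKM. The sums thus follow mainly these genes, and how far they reflect neutrophil numbers was not tested. T cell markers, in contrast, overlapped between the groups, at 9.82 and 10.8 FPKM in WT skin against 11.6 and 3.88 FPKM in KO, and B cell markers were low in all libraries (0.419 to 3.05 FPKM). Measured as the median gap to the WT mean, macrophage markers stood at -0.97 and -3.65 in KO replicates 1 and 2. Neutrophil markers stood at -1.05 and -1.17 there, beside -1.38 and -3.65 for Tnfrsf1b and -1.27 and -1.63 for Tnf. Endothelial markers stood at 0.03 and -2.51, and Icam1 at -0.21 and -0.55. The part of these cell types in the differences of Tnf, Tnfrsf1b, Traf1 and Icam1 was not tested.

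**Figure D3:**
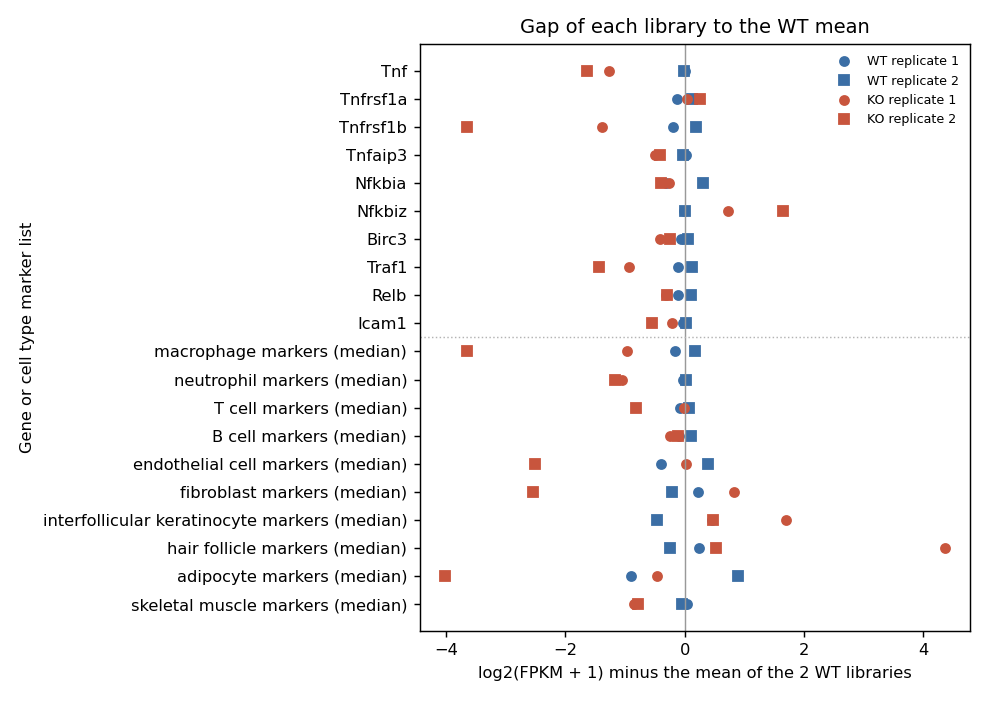
Gap of each library to the mean of the WT libraries, in log2(FPKM + 1), for the 10 genes (above the dotted line) and as the median gap of the markers of 10 cell types (below it), with blue for WT, red for KO, circles for replicate 1 and squares for replicate 2. Macrophage markers and Tnfrsf1b are at -3.65 in KO replicate 2, where adipocyte, fibroblast and endothelial medians are -4.02, -2.54 and -2.51. In KO replicate 1, macrophage markers are at -0.97 and Tnfrsf1b at -1.38. Tnfrsf1a stays within 0.25 of the WT mean in both KO libraries.

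Ordered by level in WT skin, Tnfrsf1a and Nfkbia came first (73.2 ± 9.49 and 63.3 ± 19.0 FPKM, SD, n = 2), then Tnfrsf1b and Icam1 (17.3 and 22.7 FPKM against a mean of 18.3 ± 0.571 FPKM), Relb (12.4 ± 1.46 FPKM), Birc3 and Nfkbiz (9.33 ± 0.618 and 8.89 ± 0.119 FPKM), Tnfaip3 (5.58 ± 0.0972 FPKM), Tnf and Traf1 (3.3 ± 0.508 FPKM). Neighbours in this order overlapped in range only for Tnfrsf1a and Nfkbia, Tnfrsf1b and Icam1, and Birc3 and Nfkbiz. By the group means in KO skin, Tnfrsf1a and Nfkbia were again the highest of the 10 (81.1 ± 8.49 and 49.0 ± 3.16 FPKM) and Tnf and Traf1 the lowest. Nfkbiz stood at rank 3 there (22.7 ± 10.4 FPKM, overlapping Icam1), and Tnfrsf1b stood at rank 7 (3.82 ± 4.47 FPKM, overlapping in range with Birc3, Tnfaip3, Tnf and Traf1). The exchange of places of these 2 genes was the main difference between the orders.

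The regulatory sequence just upstream of the genes was read for κB sites, the motif bound by NF-κB dimers. The 250 bases before the RefSeq start were taken from build GRCm38.p6, which is not the build of the expression table. Of the 10 genes, 8 had a promoter entry, and Relb and Nfkbiz had none. Sequences are shown for the genes with a match, Tnf, Nfkbia, Tnfaip3 and Icam1, and for Tnfrsf1b and Traf1, which had large expression differences. They are written 5′ to 3′ along the gene's strand, with matches in capitals.
Tnf (chr17:35202008-35202257, minus strand): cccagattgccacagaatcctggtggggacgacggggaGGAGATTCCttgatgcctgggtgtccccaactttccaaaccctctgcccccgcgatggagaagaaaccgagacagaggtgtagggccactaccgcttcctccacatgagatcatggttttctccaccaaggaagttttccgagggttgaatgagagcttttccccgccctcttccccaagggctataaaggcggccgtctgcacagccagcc
Nfkbia (chr12:55492648-55492897, minus strand): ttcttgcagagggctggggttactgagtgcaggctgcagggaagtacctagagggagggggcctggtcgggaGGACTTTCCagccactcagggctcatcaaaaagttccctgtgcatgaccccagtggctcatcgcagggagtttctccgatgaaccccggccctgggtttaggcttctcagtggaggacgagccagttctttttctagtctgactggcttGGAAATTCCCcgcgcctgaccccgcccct
Tnfaip3 (chr10:19015411-19015660, minus strand): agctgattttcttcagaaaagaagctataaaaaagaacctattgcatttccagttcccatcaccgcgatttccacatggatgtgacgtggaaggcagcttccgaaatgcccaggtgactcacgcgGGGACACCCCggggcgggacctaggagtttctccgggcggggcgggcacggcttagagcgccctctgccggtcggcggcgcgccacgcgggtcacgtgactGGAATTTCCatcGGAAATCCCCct
Icam1 (chr9:21015690-21015939, plus strand): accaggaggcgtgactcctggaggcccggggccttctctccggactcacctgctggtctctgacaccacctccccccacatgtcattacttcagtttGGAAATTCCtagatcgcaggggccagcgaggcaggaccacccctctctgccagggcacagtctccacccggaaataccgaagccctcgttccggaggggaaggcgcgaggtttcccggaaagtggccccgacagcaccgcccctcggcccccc
Tnfrsf1b (chr4:145246871-145247120, minus strand): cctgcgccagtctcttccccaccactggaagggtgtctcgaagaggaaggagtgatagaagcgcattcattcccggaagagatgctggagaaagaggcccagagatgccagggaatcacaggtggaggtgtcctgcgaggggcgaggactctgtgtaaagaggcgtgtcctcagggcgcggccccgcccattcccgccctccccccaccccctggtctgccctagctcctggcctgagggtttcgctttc
Traf1 (chr2:34961773-34962022, minus strand): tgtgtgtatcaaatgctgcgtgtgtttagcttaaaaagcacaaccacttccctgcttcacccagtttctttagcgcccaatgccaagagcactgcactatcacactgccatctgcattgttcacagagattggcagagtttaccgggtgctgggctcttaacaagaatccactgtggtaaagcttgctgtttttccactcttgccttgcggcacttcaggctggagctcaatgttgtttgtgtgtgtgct

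Motifs were searched on both strands of the same windows extended 50 bases past the start. The κB consensus matched in 2 of the 8 genes (25.0%), Nfkbia and Tnfaip3, and in 9.55% of all 27025 genes with a promoter entry. The shorter form GGAANNTCC, which was chosen after these promoters had been seen and overlaps the consensus in Nfkbia, matched in 4 of the 8 and in 4.86% of all genes; 8.46% and 4.26% of the 32851 windows of this length held the motifs. Tnf held GGAGATTCC 212 bases before its start, Icam1 GGAAATTCC 153 bases before, and Nfkbia GGACTTTCC 178 bases and GGAAATTCCC 29 bases before. Tnfaip3 held GGGACACCCC, GGAATTTCC and GGAAATCCCC at 125, 24 and 12 bases before the start shown, while none was found at its other listed start. Tnfrsf1a, Tnfrsf1b, Birc3 and Traf1 had no match in their windows. Of the genes with a match, Tnf was 3.97-fold lower in KO, Tnfaip3 and Icam1 differed by less than 1.5-fold and Nfkbia overlapped between the groups, while Tnfrsf1b and Traf1, 5.24-fold and 3.59-fold lower, had none. A match is only a stretch of letters, and no binding was measured. Sequence outside these windows was not searched, so a gene without a match may hold sites elsewhere.

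The rest of the pathway was read from 8 lists holding 96 further genes, of which 75 passed the filter. None was called at the adjusted threshold, and by the unadjusted rule 5 were lower (Bcl2a1b, Cd40, Mmp9, Relt and Tnfrsf14) and 2 higher (Tnfrsf18 and Tnfrsf19). Over all genes tested the unadjusted shares were 4.14% lower and 6.16% higher. Both KO values lay below WT for 27 of the 75, beside 20.5% of all genes, and above for 19, beside 35.3%, and their median log2 fold change was -0.09, beside 0.11. Tnfrsf14 and Ptgs2 passed the filter through the WT libraries only, and Ccl20 through the KO libraries only, so the filter itself favoured the direction in which each is counted.

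Of 3 tested NF-κB subunit genes, Rela (24.6 and 26.5 FPKM in WT skin, 24.1 and 19.8 FPKM in KO) and Nfkb2 (18.4 and 20.1 FPKM against 18.1 and 13.5 FPKM) were the furthest from 0, with log2 fold changes of -0.22 and -0.28. An exon of Nfkb2 overlaps Psd on the opposite strand. The 9 genes of IκB proteins and the IKK complex ranged from -0.93 to 0.47 around a median of -0.08. At the ends of this range stood Nfkbie, which encodes IκBε, at 5.32 and 5.62 FPKM in WT skin against 2.74 and 2.1 FPKM in KO, and the kinase gene Chuk, at 7.9 and 5.49 FPKM against 7.66 and 11.8 FPKM. Nfkbie was thus about 2.26-fold lower in the KO mean with no overlap (limma, Benjamini-Hochberg adjusted p = 0.248), whereas Chuk overlapped between the groups.

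The 16 genes of the TNF receptor complex had a median log2 fold change of 0.06 and none passed the unadjusted rule. Cflar, which encodes the caspase-8 inhibitor c-FLIP, was at 25.3 and 20.5 FPKM in WT skin against 16.3 and 15.1 FPKM in KO, and the kinase-binding subunit gene Tab3 was at 1.59 and 1.46 FPKM against 2.38 and 3.38 FPKM. Among 7 tested deubiquitinases and A20 partners, Tnip1, which binds A20, was at 15.0 and 17.8 FPKM in WT skin against 12.4 FPKM in both KO libraries, and the ubiquitin ligase gene Itch was at 7.33 and 4.94 FPKM against 7.84 and 9.66 FPKM. The median over these 7 genes was -0.01.

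Of the 6 genes for TNF shedding and mRNA decay, none passed the unadjusted rule. In 4 of them both KO values lay above both WT values, beside the 35.3% given above for all genes, and the median log2 fold change was 0.4. Rhbdf2, which encodes iRhom2, needed for the sheddase ADAM17 to mature in immune cells, was at 12.6 and 12.4 FPKM in WT skin against 17.3 and 20.3 FPKM in KO. Zfp36l2, which encodes a protein that promotes decay of AU-rich mRNAs, was at 34.8 and 30.3 FPKM against 43.3 and 54.6 FPKM.

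**Figure D4:**
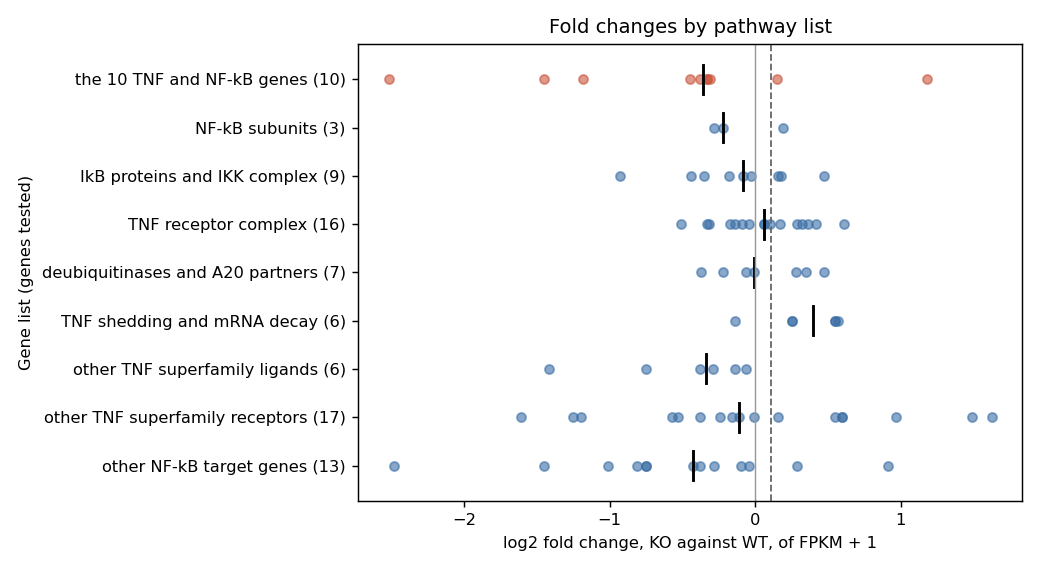
Log2 fold changes, KO against WT, of log2(FPKM + 1) for the 10 genes (red) and the tested genes of 8 pathway lists (blue), 1 point per gene; short black lines are list medians and the dashed line is the median of all genes tested, 0.11. The NF-κB subunit, IκB and IKK, and receptor complex lists range from -0.93 to 0.61, the ligands reach -1.42, and receptor and target genes spread from -2.48 to 1.63.

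Other members of the TNF superfamily spread more widely. Only 6 of 17 ligand genes were expressed highly enough to be tested, with log2 fold changes from -1.42 to -0.06. None passed the unadjusted rule, and 2 of the 6 had both KO values below both WT values, where 20.5% of all genes tested did so. Tnfsf12, the TWEAK gene, was at 14.0 and 15.2 FPKM in WT skin against 9.57 and 2.23 FPKM in KO, but shares exon sequence with the annotated gene BC096441 on the same strand. Tnfsf13b, the gene of the B cell survival factor BAFF, was at 1.56 and 2.36 FPKM against 1.04 and 0.496 FPKM. Among 17 tested receptor genes, Cd40, which encodes an activating receptor of macrophages, dendritic cells and B cells, was at 4.17 and 5.68 FPKM in WT skin against 1.65 and 0.401 FPKM in KO (log2 fold change -1.61 ± 0.39, SE; limma, Benjamini-Hochberg adjusted p = 0.248). Tnfrsf18, the GITR gene, went the other way, at 14.0 and 16.9 FPKM in WT skin against 35.9 and 69.1 FPKM in KO (1.63 ± 0.37, SE; adjusted p = 0.248 in the same limma fit). An exon of Tnfrsf18 overlaps the annotated gene Gm16008 on the opposite strand. Relt was at 5.41 and 7.93 FPKM in WT skin against 2.72 and 1.7 FPKM in KO, Tnfrsf14 at 1.5 and 3.1 FPKM in WT skin against 0.937 FPKM in KO replicate 1 and listed at 0 in KO replicate 2, and Tnfrsf19 at 12.3 and 6.17 FPKM against 20.4 and 34.3 FPKM. The 8 receptor genes below WT in both KO libraries and the 5 above it stand beside 20.5% and 35.3% over all genes tested, and the median over all 17 was -0.11.

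Of 13 further NF-κB target genes tested, 8 were below WT in both KO libraries and 2 above (20.5% and 35.3% over all genes tested), Ptgs2 and Ccl20 among them. The list repeats Nfkb2, one of those below, and Traf2, one of those above, from the lists already described, and it had a median log2 fold change of -0.43. Bcl2a1b, an anti-apoptotic BCL-2 family gene, was at 40.2 and 21.8 FPKM in WT skin against 6.4 and 3.1 FPKM in KO, and Mmp9, a gelatinase gene, at 2.37 and 6.68 FPKM against 1.23 and 0.564 FPKM. Both belong to the genes that were lower by the unadjusted rule (limma, Benjamini-Hochberg adjusted p = 0.248 and 0.258), but the value of Bcl2a1b is uncertain, since near-identical Bcl2a1 copies can share its reads and an exon overlaps the annotated gene Mthfs. Ccl20, a chemokine gene named after its values were seen, stood on the other side, at 0.779 and 0.225 FPKM in WT skin against 1.83 and 1.71 FPKM in KO skin, and did not pass the fold limit.

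The 5 tested genes whose pattern over the 4 libraries was most like that of Tnf, by root mean square distance of centred log2 values, were Cd80, Atcayos, Map4k1, Milr1 and Apobec1, at distances of 0.0596 to 0.0944. Cd80, which encodes a co-stimulatory ligand of antigen-presenting cells, was at 3.76 and 3.98 FPKM in WT skin against 0.873 and 0.594 FPKM in KO. Map4k1, a kinase gene of blood cells, was at 3.0 and 3.07 FPKM against 0.922 and 0.321 FPKM. Apobec1 was at 21.1 and 19.9 FPKM against 8.85 and 5.37 FPKM. Cd80 and Map4k1 passed the filter through the WT libraries only, so the filter itself favoured their direction. Over only 4 libraries such likeness merely describes how the values differed between libraries, whatever their level.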

How the data were processed

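Skin RNA of BLM-treated mice, in 2 WT and 2 GSDMD KO libraries, was read from 1 deposited table. Its values are FPKM, made by the authors: 99.993% of the values above 0 are not whole. The submitters' processing notes name mm9, HISAT2 2.0.1 and StringTie 2.0.6. Length and depth scaling was thus already applied and no count model could be used. The main design assumed this.

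Values were transformed to log2(FPKM + 1). The 13027 genes reaching 1 FPKM in 2 or more libraries entered limma 3.58.1 in R 4.3.3, with 1 term, genotype. Gene variances were moderated by empirical Bayes with a mean-variance trend, followed by Benjamini-Hochberg adjustment. The fit was tested on simulated data. Tables were made with Python 3.11.15 and pandas 2.3.3. Depth was estimated from the step of 1 fragment in 2710 genes with a single transcript; only 59.5% to 66.7% of low values lay within 0.1 of whole steps, so it is approximate and no interval was derived.

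The members and lists were chosen with earlier results of these data known. Genes named were the 10 members, Gsdmd, the 2 genes furthest from 0 in each pathway list, cell type markers and the 5 genes most like Tnf; Relt, Tnfrsf14, Tnfrsf19, Ptgs2 and Ccl20 were named after their values were seen. Loci were taken from GENCODE vM1 (mm9), promoters from RefSeq. Alternatives were other scalings, pseudocounts, filters, no trend, a replicate block and leaving out each library.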

Additional observations from a re-analysis of the deposited data

How the results depend on the processing

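Of the 13 alternatives, 8 can move a fold change, and 0 of the 80 member fold changes under them reversed. Over all 13, of 129 values, 125 stayed on their side of the threshold and 4 passed it, all without KO replicate 1 (Tnf -1.63, Tnfrsf1b -3.65, Traf1 -1.43 and Nfkbiz 1.65). Ranges were -1.94 to -1.27 for Tnf, -3.65 to -1.38 for Tnfrsf1b, -1.81 to -0.93 for Traf1 and 0.72 to 1.65 for Nfkbiz, with adjusted p from 0.0153, 0.00148, 0.0266 and 0.0152 up to 0.954; the filter of at least 5 FPKM left Traf1 untested. Leaving out 1 library gave 0 to 1920 genes called (1920 without KO replicate 1, 31 without KO replicate 2, 0 without either WT library), 0 to 4 members called and 0 to 8 pathway genes called. By the unadjusted rule it gave 205 to 1600 genes lower and 264 to 1288 higher, 1 to 3 members lower (1, without WT replicate 2), 0 to 1 members higher (0 without KO replicate 2 or either WT library) and 1 to 9 pathway genes lower, and 1 to 2 members then had KO above WT. Where a group has 1 library, it is assumed to vary like the other group. With the filter of at least 5 FPKM 2 pathway genes were lower, and with a pseudocount of 0.1 or 0.5, 4 were higher. Median-ratio and upper-quartile scaling moved the members' median to -0.47 and -0.45 and put KO below WT for 8 members, Nfkbia included; median-ratio scaling moved that of all genes from 0.11 to 0.01, and the unadjusted split from 539 lower and 802 higher to 707 and 632, or 667 and 656 with upper-quartile scaling. The cause was not tested. Same-numbered libraries were not paired by any source, and their deviations correlated at -0.202 over 13027 genes. The replicate block gave 0 genes called, 686 lower and 907 higher by the unadjusted rule, 7 pathway genes lower, and the same members' counts as without it (0 called, 3 lower, 1 higher). The crossed block, added after the data were seen, gave 0 called, 681 lower and 819 higher. Depth limits the low values: 3 fragments on 1 kb stand at 0.172 to 0.235 FPKM.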
